A study of Mus musculus with 10 samples.

Results

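Amino acid transporters are membrane proteins of the solute carrier (SLC) families that move amino acids into and out of cells. To ask how their transcripts differed after Arid1a loss in mouse prostate cells, 10 genes were followed in RNA-seq tables of 48897 gene rows: Slc3a2, Slc7a5, Slc7a11, Slc7a1, Slc43a1, Slc43a2, Slc1a4, Slc1a5, Slc38a1 and Slc38a2. They were found by their symbols, and each had 1 row in both tables. The set was drawn up with the knockout against control differences of these tables known. Every difference of these 10 genes is therefore a description with no test, and no count over them supports anything.

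The first table held prostate epithelium, sorted as EpCAM-positive and CD45-negative cells from C57BL/6 mice aged 3 months. Its control mice (3 libraries, A to C) carried no Arid1a deletion by their label. The other mice were Arid1aPC-/- (3 libraries, A to C), with the deletion made by a Cre recombinase under the Probasin promoter, which is active in prostate epithelium. All of these mice were engineered and shared a further alteration, so no group was wild type. The second table held Myc-CaP, a cancer cell line from the prostate of an FVB mouse with a Myc transgene, carrying an empty vector (EV, 2 libraries) or labelled Arid1a KO (2 libraries), which the study made with a CRISPR vector. The labels did not say whether the 2 Arid1a KO libraries came from separate clones or guides, or which animal or culture gave each library, so any p value measures the spread between these libraries, which may be technical. The epithelium was deposited as RPKM, a read count per unit of gene length and of library size, and Myc-CaP as TPM, a read count per unit of gene length set to 1 common sum per library. Both units are divided by gene length, so genes were compared within a table, and no level was compared between the tables.

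The gene targeted by the knockout was read first. Arid1a stood at 27.8, 21.9 and 26.5 RPKM in control A, B and C and at 31.1, 28.8 and 30.8 RPKM in the epithelium libraries labelled Arid1a KO. It was not lower under the knockout label. All 3 labelled libraries lay above all 3 controls, a log2 difference of 0.25 (limma adjusted p = 0.054, n = 3 and 3). A value over the whole gene does not show whether an exon was removed, so these libraries are called "labelled Arid1a KO" throughout. In Myc-CaP, Arid1a fell from 60.5 and 61.0 TPM in EV to 39.5 and 40.3 TPM in Arid1a KO (limma adjusted p = 0.0102). Low RPKM values mostly did not resolve into whole reads (22.2% to 25.5% lay within 0.03 of one), so the depth of the epithelium libraries, 28800000 to 36200000 reads, is a rough estimate, and TPM keeps no depth.

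Markers of other cells differed between the epithelium groups. Counts of markers that rose, fell or were lower are limma calls at an adjusted p under 0.05. Of all tested genes in the epithelium, 27.5% were called higher and 29.6% lower. The summed level of 10 macrophage markers was 2740 to 3140 RPKM in control and 5020 to 5760 RPKM in libraries labelled Arid1a KO, where 10 of 10 rose and none was at 0. Of 6 leukocyte markers, summing to 749 to 781 and 846 to 909 RPKM, 5 rose and 1, Cd52, fell. Among them Ptprc, which encodes the CD45 that the sort gated against, was at 28.6 ± 2.30 and 57.3 ± 0.983 RPKM (SD, n = 3 each). The sums of 8 seminal vesicle markers were 18400 to 20800 RPKM in control and 623 to 1570 RPKM in libraries labelled Arid1a KO, and 8 of 8 fell. Epithelial markers summed to 4600 to 6110 and 3880 to 4260 RPKM, with 3 of 6 lower, among them Epcam. These shifts ran in the same 6 libraries as every epithelium difference given here, and their part in the results was not tested. In bulk RNA, fewer cells of a type and less RNA per cell cannot be told apart. Leukocyte markers were low in Myc-CaP: 6 general ones summed to 3.47 to 5.57 TPM, neutrophil markers summed to at most 0.435 TPM, with 6 of 9 at 0, T cell markers to at most 0.331 TPM and macrophage markers to 8.29 to 13.2 TPM. In that line the luminal gene Pbsn was listed at 0 in all 4 libraries, and the keratin gene Krt8 was 0.932 ± 0.201 TPM in EV and 39.6 ± 1.02 TPM in Arid1a KO.

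The 10 transporters fall into groups by how they work. Slc3a2 is the CD98 heavy chain, a glycoprotein that brings light chains of the Slc7 family to the plasma membrane: Slc7a5 (LAT1), an exchanger of leucine and other large neutral amino acids, and Slc7a11 (xCT), which imports cystine in exchange for glutamate and so feeds glutathione synthesis. Slc7a1 (CAT1) carries arginine and lysine without a heavy chain, and Slc43a1 (LAT3) and Slc43a2 (LAT4) are sodium-independent carriers of leucine and related amino acids. Slc1a4 (ASCT1) and Slc1a5 (ASCT2) are sodium-dependent exchangers of neutral amino acids, with Slc1a5 a main route for glutamine, and Slc38a1 (SNAT1) and Slc38a2 (SNAT2) accumulate glutamine and other neutral amino acids with sodium. Amino acid shortage is sensed by the kinase Gcn2, encoded by Eif2ak4, which raises the translation of Atf4, and ATF4 induces several of these transporters through C/EBP-ATF response elements. Leucine and arginine inside the cell in turn activate the kinase complex mTORC1.

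The promoters of Slc7a11 and Slc1a4 are shown because, of the member promoters at hand, they alone held the C/EBP-ATF letters, and because both genes differed between groups in the epithelium, Slc7a11 higher and Slc1a4 lower. Windows of 250 bases before to 50 bases after the start site were taken from RefSeq on GRCm38.p6 for 7 of the 10 genes, in 9 windows. Slc7a5, Slc1a5 and Slc38a1 had no window. The letters TGATGNAA, searched on both strands, were found in 2 of these 9 windows and in 3.97% of 32851 promoters. Both sequences are printed 5′ to 3′ along the strand of the gene (the minus strand), with the matches in capitals.
Slc7a11, chr3:50443564-50443863: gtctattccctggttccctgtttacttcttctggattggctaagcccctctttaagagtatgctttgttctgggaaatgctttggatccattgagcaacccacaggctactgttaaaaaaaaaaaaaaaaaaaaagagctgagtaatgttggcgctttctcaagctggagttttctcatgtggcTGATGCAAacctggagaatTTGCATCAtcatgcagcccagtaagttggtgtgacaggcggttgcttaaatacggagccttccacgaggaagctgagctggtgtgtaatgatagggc
Slc1a4, chr11:20332664-20332963: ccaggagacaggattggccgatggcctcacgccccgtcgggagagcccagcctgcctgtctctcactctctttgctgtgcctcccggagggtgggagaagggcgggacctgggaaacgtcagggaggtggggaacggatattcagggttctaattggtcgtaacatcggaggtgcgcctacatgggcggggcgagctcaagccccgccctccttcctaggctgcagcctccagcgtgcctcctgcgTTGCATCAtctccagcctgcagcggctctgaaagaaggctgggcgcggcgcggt
With the start base counted as 0, the Slc7a11 window held a forward match (TGATGCAA) from -66 to -59 and a reverse one (TTGCATCA) from -47 to -40. Slc1a4 held 1 reverse match (TTGCATCA) from -4 to 3, over the start site. A match of letters is a description and not a site. Slc7a11 itself is on chromosome 3 from 49892526 to 50443614, and Slc1a4 on chromosome 11 from 20302180 to 20332713, both protein coding on the minus strand in GENCODE M21 on GRCm38.

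In the epithelium, the heavy chain and the cystine light chain were higher in libraries labelled Arid1a KO, while the leucine light chain was not. Slc3a2 stood at 49.2, 50.6 and 49.9 RPKM in control A, B and C and at 63.7, 62.9 and 57.5 RPKM in A, B and C labelled Arid1a KO. All 3 labelled libraries were above all 3 controls, and the means of 49.9 ± 0.691 and 61.4 ± 3.37 RPKM (SD, n = 3 each) differed 1.23-fold, or by 0.29 ± 0.047 (SE) as log2(RPKM + 1), which became 0.47 after rescaling each library to the same sum. Slc7a11 was at 5.87, 5.15 and 5.63 RPKM in control and at 14.5, 17.65 and 13.1 RPKM in labelled libraries. The groups lay far apart, with means of 5.55 ± 0.370 and 15.1 ± 2.32 RPKM, a ratio of 2.72 and a log2 difference of 1.29 ± 0.13 (SE). Slc7a11 had the widest ratio of the 10 genes in this table. Slc7a5 was at 29.0, 24.3 and 29.3 RPKM in control and at 25.7, 24.9 and 25.5 RPKM in labelled libraries. The labelled libraries lay inside the control range, the log2 difference of -0.11 ± 0.085 (SE) was about as large as its error, and it became 0.061 when each library was rescaled to the same sum.

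**Figure D1:**
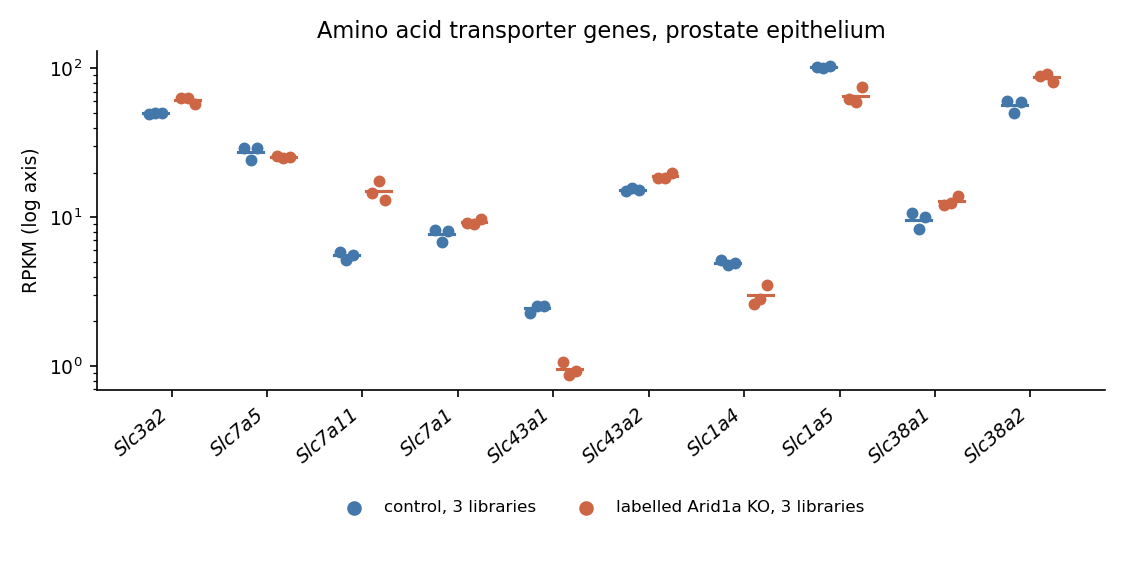
Level of the 10 amino acid transporter genes in prostate epithelium, as RPKM on a log axis, with 1 point per library and a bar at each group mean (blue, 3 control libraries; red, 3 libraries labelled Arid1a KO). Slc7a11 and Slc43a1 show the widest gaps between groups, 2.72-fold higher and 2.56-fold lower, and the groups overlap for Slc7a5 alone.

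In Myc-CaP the heavy chain was again higher, but there the leucine light chain was higher and the cystine light chain was not. Slc7a5 was the most abundant member, at 566 and 521 TPM in EV 1 and 2 and at 830.5 and 780.5 TPM in Arid1a KO 1 and 2. Both knockout libraries were above both EV libraries, with means of 544 ± 32 and 805.5 ± 35.4 TPM (SD, n = 2 each), a ratio of 1.48 and a difference of 0.57 ± 0.075 (SE) as log2(TPM + 1). The heavy chain Slc3a2 was at 154 and 145 TPM in EV and at 194 and 180.7 TPM in Arid1a KO, 1.25-fold higher with the groups apart, and so much like the ratio in the epithelium. Slc7a11 was at 25.9 and 30.6 TPM in EV and at 26.0 and 28.8 TPM in Arid1a KO. The knockout libraries lay between the EV libraries, and the log2 difference of -0.042 ± 0.13 (SE) changed sign when EV 2 or Arid1a KO 1 was left out.

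**Figure D2:**
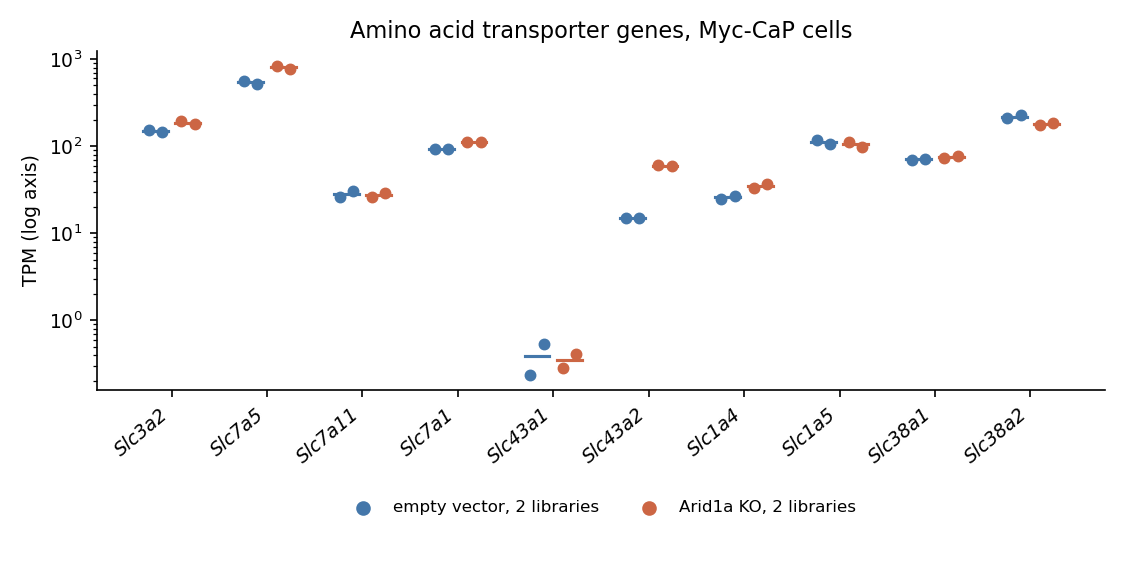
Level of the same 10 genes in Myc-CaP cells, as TPM on a log axis, with 1 point per library and a bar at each group mean (blue, 2 EV libraries; red, 2 Arid1a KO libraries). Slc43a2 shows the widest gap, 3.93-fold higher in Arid1a KO, Slc7a5 is the highest gene in every library, and Slc43a1 lies under 1 TPM.

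Because light chains share 1 heavy chain, their makeup was compared through ratios within each library, which no rescaling can change. These ratios were chosen after the values were seen. In the epithelium, Slc7a5 over Slc3a2 was 0.553 ± 0.0622 in control and 0.414 ± 0.026 in libraries labelled Arid1a KO, lower in each of the 3 labelled libraries than in any control. Slc7a11 over Slc3a2 moved the other way, from 0.111 ± 0.00891 to 0.246 ± 0.0302 with the groups apart. In Myc-CaP both ratios had the opposite order: Slc7a5 over Slc3a2 was 3.63 ± 0.0595 in EV and 4.30 ± 0.0262 in Arid1a KO, and Slc7a11 over Slc3a2 was 0.190 ± 0.0302 and 0.147 ± 0.0177. The 6 Slc7 light chains summed over Slc3a2 overlapped between the epithelium groups, at 1.21 ± 0.160 and 1.30 ± 0.0677, and were 4.22 ± 0.0187 and 4.75 ± 0.0533 in Myc-CaP.

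Of these 6 light chains, Slc7a5 held 44.4% to 46.8% of the summed RPKM in control epithelium and 31.0% to 32.5% in libraries labelled Arid1a KO. Slc7a11 held 8.90% to 9.90% and 16.6% to 22.03%. Slc7a8 (LAT2), which exchanges neutral amino acids including small ones, held 20.1% to 25.6% and 29.1% to 31.6%. In Myc-CaP, Slc7a5 alone held 85.4% and 86.8% in EV and 90.2% and 90.9% in Arid1a KO, and Slc7a8 was at or near 0.

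**Figure D3:**
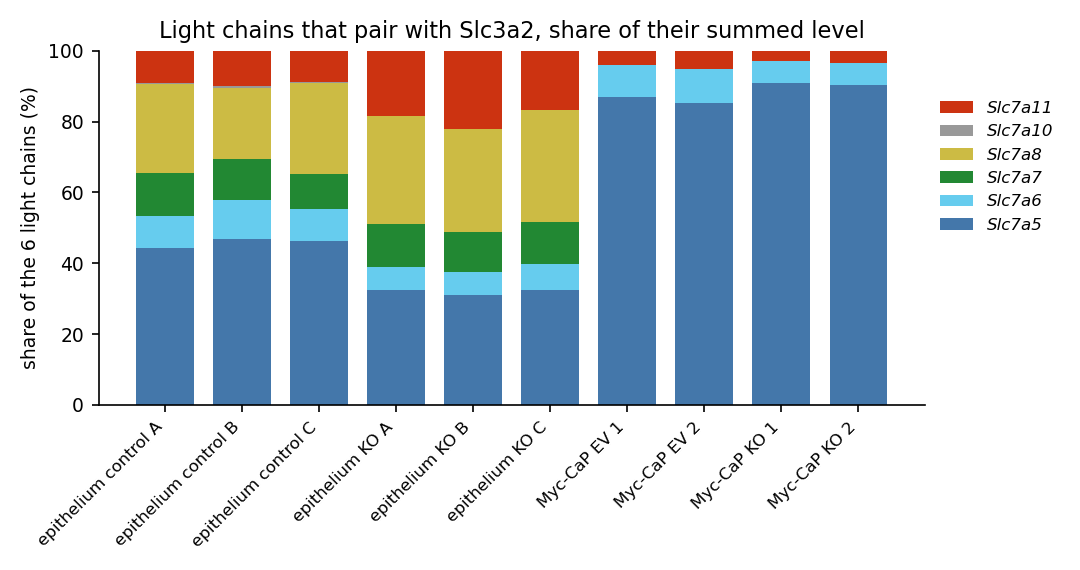
Share of each of the 6 light chain genes that pair with Slc3a2 in their summed level, in percent, with 1 stacked bar per library (RPKM in the 6 epithelium libraries, TPM in the 4 Myc-CaP libraries). The Slc7a5 share is 31.0% to 32.5% in epithelium labelled Arid1a KO, below the controls, and above 85% in each Myc-CaP library.

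The arginine carrier Slc7a1 was slightly higher under the knockout label in both systems. In the epithelium it was at 8.28, 6.84 and 8.07 RPKM in control and at 9.18, 8.97 and 9.77 RPKM in libraries labelled Arid1a KO. The groups did not overlap, although control B stood low and the log2 difference of 0.24 ± 0.083 (SE) ranged over the alternative settings from 0.0545, with a trend on gene length removed, to 0.402 after rescaling. In Myc-CaP, Slc7a1 was at 91.98 and 92.5 TPM in EV and at 111.6 and 113 TPM in Arid1a KO, 1.22-fold higher with a small spread (log2 difference 0.28 ± 0.012, SE).

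The LAT3 and LAT4 genes parted. Slc43a1, first described as a gene overexpressed in prostate cancer, was at 2.28, 2.55 and 2.54 RPKM in control epithelium and at 1.06, 0.877 and 0.934 RPKM in libraries labelled Arid1a KO. The control mean of 2.45 ± 0.154 RPKM was 2.56 times the labelled mean of 0.958 ± 0.0959 RPKM, with the groups apart. The log2 difference was -0.82 with a pseudocount of 1 and -1.27 with 0.1. Slc43a2 was at 15.01, 15.7 and 15.2 RPKM in control and at 18.3, 18.5 and 19.97 RPKM in labelled libraries. It was 1.23-fold higher, and the log2 difference of 0.29 was 0.12 once a trend on gene length was removed. The ratio of Slc43a2 to Slc43a1 was 6.26 ± 0.308 in control and 19.9 ± 2.35 in libraries labelled Arid1a KO.

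Slc43a2 also had the widest ratio of any member in Myc-CaP. It was at 15.2 and 15.1 TPM in EV and at 60.2 and 58.8 TPM in Arid1a KO. The means of 15.1 ± 0.0448 and 59.5 ± 1.05 TPM gave a ratio of 3.93 and a log2 difference of 1.91 ± 0.018 (SE), which stayed between 1.89 and 1.97 in all 12 alternative settings. Slc43a2 lies on chromosome 11 from 75531694 to 75577575 on the plus strand, and 1 annotated antisense gene, Gm45606, overlaps its exons from the other strand. The study stated strand-specific counting. Slc43a1 was at 0.238 and 0.542 TPM in EV and at 0.284 and 0.412 TPM in Arid1a KO, under the minimum mean of 0.5, and gave no comparison.

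Both ASCT genes were lower in epithelium labelled Arid1a KO. Slc1a5 was the most abundant member in control, at 102, 101 and 104 RPKM, and stood at 61.9, 59.95 and 74.8 RPKM in labelled libraries. The groups were well apart, and the control mean of 102 ± 1.31 RPKM was 1.56 times the labelled mean of 65.6 ± 8.08 RPKM (log2 difference -0.64 ± 0.099, SE). Slc1a4 was at 5.17, 4.76 and 4.97 RPKM in control and at 2.64, 2.84 and 3.51 RPKM in labelled libraries, 1.66-fold lower. Library C was the nearest to control for both genes. The ratio of Slc1a5 to Slc1a4 overlapped between the groups, at 20.6 ± 0.826 and 21.97 ± 1.31.

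In Myc-CaP the pair did not move together. Slc1a5 was at 116.5 and 107 TPM in EV and at 112 and 98.8 TPM in Arid1a KO, with overlapping groups and a log2 difference of -0.087 ± 0.11 (SE). Slc1a4 was at 25.1 and 26.7 TPM in EV and at 33.5 and 36.9 TPM in Arid1a KO. It was 1.36-fold higher with the groups apart, opposite in sign to the epithelium, and the ratio of Slc1a5 to Slc1a4 was 4.32 ± 0.456 in EV and 3.01 ± 0.463 in Arid1a KO.

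The SNAT genes are neighbours, with Slc38a1 on chromosome 15 from 96571418 to 96642913 and Slc38a2 from 96687392 to 96699730, 44.5 kb apart with 0 protein coding genes between them. In the epithelium, Slc38a2 was at 60.6, 50.5 and 59.9 RPKM in control and at 88.9, 92.4 and 81.2 RPKM in libraries labelled Arid1a KO. The means of 57.0 ± 5.61 and 87.5 ± 5.76 RPKM differed 1.54-fold with the groups apart. Slc38a1 was at 10.6, 8.34 and 10.01 RPKM in control and at 12.2, 12.5 and 13.9 RPKM in labelled libraries, 1.33-fold higher with the groups apart. Its log2 difference of 0.38 was 0.12 once a trend on gene length was removed. Set against the other glutamine carrier, Slc38a2 over Slc1a5 was 0.558 ± 0.0514 in control and 1.35 ± 0.239 in libraries labelled Arid1a KO.

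In Myc-CaP, Slc38a2 was at 212 and 227 TPM in EV and at 175.5 and 187 TPM in Arid1a KO. Both knockout libraries were below both EV libraries, 1.21-fold lower, again opposite in sign to the epithelium (log2 difference -0.27 ± 0.069, SE). Slc38a1 was at 70.4 and 72.2 TPM in EV and at 72.5 and 76.9 TPM in Arid1a KO, a log2 difference of 0.065 ± 0.046 (SE) with a gap between groups of less than either group's own range.

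**Figure D4:**
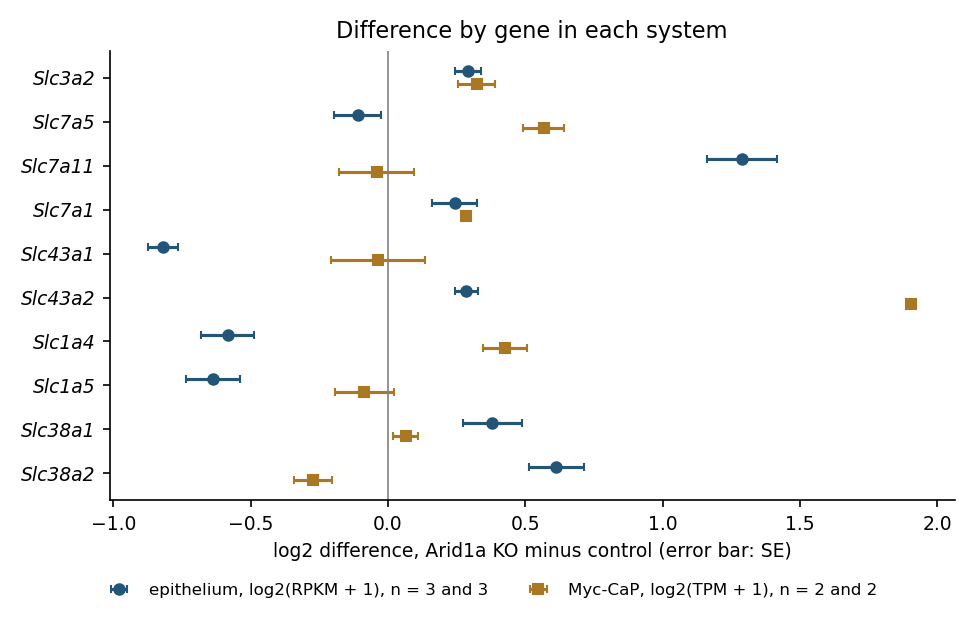
Difference of each of the 10 genes between Arid1a KO and control on the log2 scale, with bars of 1 SE (circles, epithelium, log2(RPKM + 1), n = 3 and 3; squares, Myc-CaP, log2(TPM + 1), n = 2 and 2). Slc3a2, Slc7a1, Slc43a2 and Slc38a1 lie to the right of 0 in both systems. Slc1a4, Slc38a2, Slc7a5 and Slc7a11 lie on opposite sides, with overlapping groups for Slc7a5 in the epithelium and Slc7a11 in Myc-CaP.

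Ranked by level, the glutamine carriers exchanged places in the epithelium. In control the order was Slc1a5, Slc38a2, Slc3a2, Slc7a5, Slc43a2, Slc38a1, Slc7a1, Slc7a11, Slc1a4 and Slc43a1. Slc38a2 and Slc3a2 overlapped, as did Slc7a11 and Slc1a4, and all other neighbours were apart. In libraries labelled Arid1a KO, Slc38a2 came first, Slc1a5 and Slc3a2 overlapped behind it, and Slc7a11 overlapped with Slc38a1 above Slc7a1. Slc1a5 was above 96.1% of the tested genes in control and 94.0% in labelled libraries, Slc7a11 above 48.0% and 72.5%, and Slc43a1 above 29.8% and 13.1%. In Myc-CaP the EV order was Slc7a5, Slc38a2, Slc3a2, Slc1a5, Slc7a1, Slc38a1, Slc7a11, Slc1a4, Slc43a2 and Slc43a1, in which Slc7a11 and Slc1a4 overlapped. In Arid1a KO, Slc43a2 stood above Slc1a4 and Slc7a11, and Slc3a2 overlapped with Slc38a2, as Slc7a1 did with Slc1a5. Slc43a2 was above 49.3% of the tested genes in EV and 78.4% in Arid1a KO.

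Counted over the set, 9 of the 10 genes had non-overlapping epithelium groups, 6 higher and 3 lower. Over all tested genes this share was 66.7%, with 32.4% higher and 34.4% lower. The limma fit across 16275 genes called 57.1% of them at an adjusted p under 0.05 (27.5% higher, 29.6% lower). It called the same 9 members, but 6 with a trend on gene length removed. A minimum mean of 5 gave 7, with Slc43a1 and Slc1a4 under that mean and not tested. The median log2 difference was 0.264 over the 10 members and -0.028 over all tested genes. In Myc-CaP, the fit across 13974 genes called 6.43% (4.54% higher, 1.89% lower) and 3 of the 9 members tested, Slc43a2, Slc7a5 and Slc7a1, each higher. Non-overlapping groups were seen for 7 of the 10 genes, 6 higher and 1 lower, against 51.5% of all tested genes (24.9% higher, 26.6% lower), and the median was 0.174 over all 10 members, the untested Slc43a1 included, against -0.014 over all tested genes. When any 1 of the 4 Myc-CaP libraries was left out, 0 to 1 members and 0 genes of each list below stayed called. The set was chosen on these contrasts, so nothing is read from these counts. The same 10 genes summed to 282 ± 10.7 RPKM in control and 299.9 ± 1.74 RPKM in libraries labelled Arid1a KO, and to 1257 ± 28.1 TPM in EV and 1589 ± 37.7 TPM in Arid1a KO. Slc7a5 made up 9.74% and 8.46% of the sum in the epithelium groups, and 43.2% and 50.7% in the Myc-CaP groups.

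The choice of scale matters in the epithelium. Summed RPKM was 441600 to 473300 in control and 398000 to 403000 in libraries labelled Arid1a KO. Rescaling each library to the same sum moved the median of all genes from -0.028 to 0.109 and the share of calls that were higher from 48.1% to 64.6%. Under this scale 9 members kept their sign, Slc7a5 being the exception. The call counts given for the gene lists below are followed by those after rescaling.

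Other carriers of amino acids were tested next, as 53 genes from the Slc families and the lysosomal carrier Ctns, listed by function. This list and those that follow were chosen with earlier results of these data known. Their shares called are therefore descriptions and not independent support. In the epithelium 26 passed the minimum mean, of which 12 rose and 4 fell (61.5% called, against 57.1% of all genes), with a median log2 change of 0.139, and after rescaling 13 rose and 2 fell. Slc7a2, a carrier of arginine and lysine like Slc7a1, rose from 1.07 ± 0.143 to 6.23 ± 0.540 RPKM (log2 fold change 1.81 ± 0.094, limma adjusted p = 1.5e-05). The taurine carrier Slc6a6 rose from 25.9 ± 4.19 to 46.4 ± 1.36 RPKM (adjusted p = 0.00071). Slc7a8 and Slc7a7, which like Slc7a5 need the heavy chain, rose from 14.4 ± 3.38 to 24.1 ± 0.809 RPKM and from 6.71 ± 1.05 to 9.37 ± 0.383 RPKM. Slc36a4 (log2 fold change 0.48) and the lysosomal histidine and peptide carrier Slc15a4 (0.47) also rose. The mitochondrial carrier Slc25a29, which takes up basic amino acids, fell from 9.95 ± 0.533 to 1.83 ± 0.486 RPKM (log2 fold change -1.97, adjusted p = 3e-05). Slc7a4 fell from 14.3 ± 1.35 to 4.74 ± 0.954 RPKM, and smaller falls were called for the cystine exporter Ctns of the lysosome (-0.41) and the mitochondrial aspartate and glutamate carrier Slc25a12 (-0.29). Both calls were lost after rescaling (adjusted p = 0.112 and 0.24) and without labelled library B (0.0531 and 0.0622), and that of Slc25a12 also without labelled library A (0.0734) or control A (0.0739).

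In Myc-CaP, 25 of these genes were tested and 2 were called, both higher (8%, against 6.43% of all genes). These were Slc6a6, from 182 ± 1.87 to 258 ± 4.21 TPM (log2 fold change 0.50 ± 0.050, limma adjusted p = 0.0109), and the aromatic amino acid carrier Slc16a10, from 7.84 ± 0.194 to 12.2 ± 0.0625 TPM (0.58 ± 0.089, adjusted p = 0.0311). Both also rose in the epithelium, Slc16a10 from 2.57 ± 0.299 to 3.69 ± 0.496 RPKM (adjusted p = 0.0163, or 0.053 without labelled library A). Of the named carriers that were higher in the epithelium, Slc7a2 and Slc7a11 had the widest ratios, 5.85 and 2.72. They stood beside the macrophage marker shift given above, whose part was not tested, and the Slc7a11 groups overlapped in Myc-CaP.

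The amino acid starvation response, 26 genes led by Eif2ak4 and Atf4, was tested next. In the epithelium 26 were tested, 5 rose and 12 fell (65.4% called, against 57.1% of all genes), with a median of -0.212, and after rescaling 6 rose and 11 fell. Without labelled library B or C, 3 rose. Atf4 fell from 188 ± 6.71 to 143 ± 8.26 RPKM (log2 fold change -0.40, limma adjusted p = 0.00247). Phgdh, the first enzyme of serine synthesis, fell from 47.4 ± 7.22 to 18.9 ± 3.65 RPKM (-1.29 ± 0.16, adjusted p = 0.000428). The glutathione-degrading Chac1 fell from 13.5 ± 1.40 to 6.14 ± 0.745 RPKM, Asns (asparagine synthetase) from 17.3 ± 0.737 to 8.86 ± 1.11 RPKM and the mitochondrial Pck2 from 25.4 ± 2.74 to 13.1 ± 0.784 RPKM. The transcription factor Cebpb rose from 375 ± 45.2 to 556 ± 65.2 RPKM, the leucine sensor Sesn2 from 17.1 ± 1.24 to 25.3 ± 1.82 RPKM, and the serine enzyme Psat1 from 13.1 ± 1.43 to 17.2 ± 1.21 RPKM. Eif2ak4 was also called higher (log2 fold change 0.33, adjusted p = 0.0366), a call lost with a trend on gene length removed (adjusted p = 0.061), with no filter on low values (0.0805) and without control B or any of the 3 labelled libraries (0.0538 to 0.1).

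In Myc-CaP, 24 of these genes were tested, 8 rose and 0 fell (33.3% called, against 6.43% of all genes), and the groups lay apart and higher for 14 and lower for 0. The median was 0.206. Nupr1, a stress-induced chromatin protein, rose from 31.2 ± 3.74 to 58.7 ± 7.5 TPM (log2 fold change 0.89 ± 0.13, limma adjusted p = 0.0259). Eif2ak4 rose from 24.3 ± 0.206 to 44.8 ± 0.242 TPM (0.86 ± 0.062, adjusted p = 0.00539). Pck2 rose from 36.7 ± 0.378 to 64.1 ± 1.56 TPM and Chac1 from 28.5 ± 0.312 to 49.8 ± 0.582 TPM. Atf4 itself was not called, at 397 ± 35.1 TPM in EV and 431.5 ± 26.1 TPM in Arid1a KO (adjusted p = 0.48). The difference between the systems was not tested, since the tables carry different units.

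**Figure D5:**
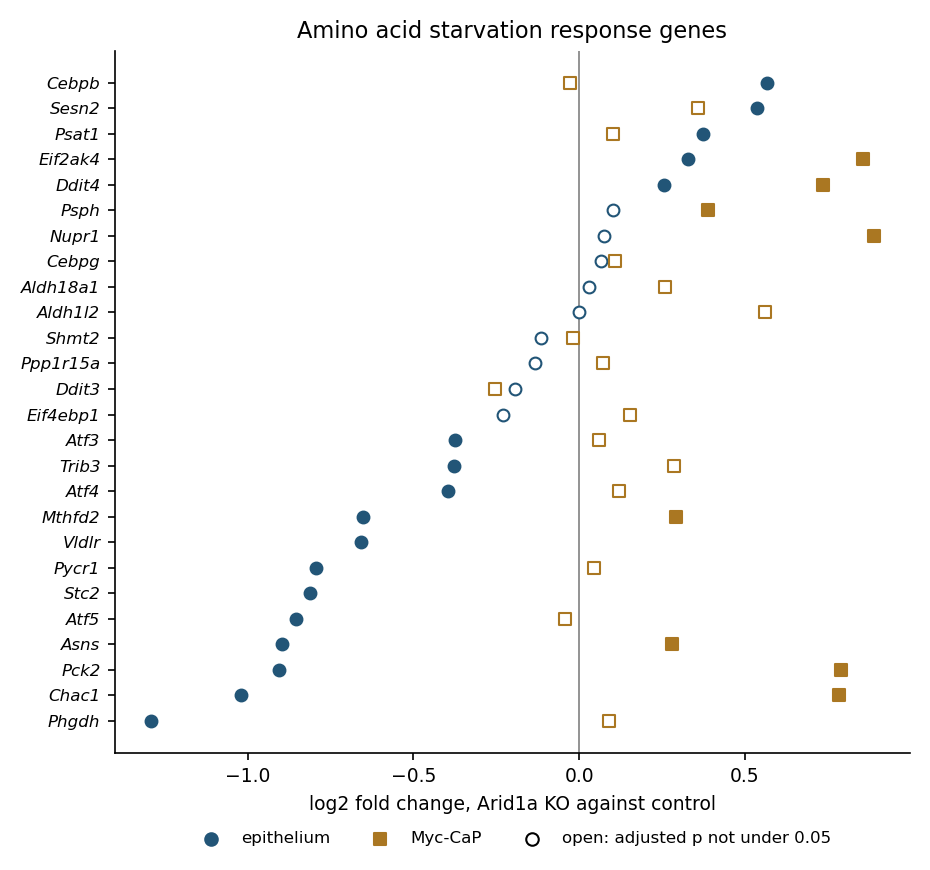
Log2 fold change of the 26 amino acid starvation response genes, Arid1a KO against control, as log2(RPKM + 1) in epithelium (circles) and log2(TPM + 1) in Myc-CaP (squares, 24 genes tested), with filled symbols where the limma adjusted p was under 0.05. Of the filled circles 12 lie to the left of 0 and 5 to the right, and all 8 filled squares lie to the right.

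Aminoacyl-tRNA synthetases, which load amino acids onto tRNA, gave few calls. In the epithelium 2 of 20 rose and 4 fell (30.0% called, against 57.1%), and after rescaling 6 rose and 2 fell, so the balance of directions turned with the scale. Without labelled library A, 2 fell. Wars, the tryptophan enzyme, fell from 66.4 ± 2.28 to 32.2 ± 4.12 RPKM (log2 fold change -1.03, limma adjusted p = 0.000126) and Sars, the serine enzyme, from 42.9 ± 2.25 to 29.3 ± 0.395 RPKM. Smaller falls were called for Vars (-0.27) and Yars (-0.21), and Iars (0.49) and Nars (0.30) rose. The calls of Vars and Yars were lost after rescaling (adjusted p = 0.262 and 0.62) and without labelled library A (0.0686 and 0.0698), and that of Yars also without labelled library C (0.0556) or control C (0.0758). In Myc-CaP limma called 0 of 20, and 3 had an unadjusted p under 0.05.

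Genes of amino acid sensing by mTORC1 were called in both directions. In the epithelium 10 of the 34 tested rose and 15 fell (73.5% called, against 57.1%), and after rescaling 12 rose and 5 fell, so here too the balance turned with the scale. Without labelled library A or B, 8 fell. Fnip2 and Fnip1, partners of folliculin, rose from 5.02 ± 0.801 to 11.4 ± 0.927 RPKM and from 5.15 ± 0.674 to 10.7 ± 0.804 RPKM. Gatsl2, an arginine sensor subunit also named Castor2, rose from 2.30 ± 0.482 to 4.45 ± 0.104 RPKM (log2 fold change 0.73, limma adjusted p = 0.0014). The Ragulator subunits Lamtor2 (-0.63) and Lamtor4 (-0.47), the Rag GTPase Rragd (-0.61) and the mTOR partner Mlst8 (-0.46) fell, Lamtor4 with an adjusted p of 0.0994 once a trend on gene length was removed. In Myc-CaP 1 of 34 rose and 1 fell (5.88% called). Sesn1 rose from 14.4 ± 0.570 to 24.4 ± 0.584 TPM (adjusted p = 0.0126), and Mtor fell from 50.3 ± 0.775 to 37.4 ± 1.03 TPM (adjusted p = 0.0279).

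Of the 5 lists, the enzymes that use the carried amino acids had the highest share called in the epithelium. There 7 of the 30 tested rose and 18 fell (83.3% called, against 57.1%), with a median of -0.395, and after rescaling 9 rose and 16 fell. Arg1, which splits the arginine that Slc7a1 and Slc7a2 carry and is abundant in myeloid cells, rose from 27.6 ± 1.45 to 225 ± 33.5 RPKM (log2 fold change 2.98 ± 0.11, limma adjusted p = 4.41e-06). Odc1, the next enzyme from ornithine to polyamines, rose from 39.97 ± 0.632 to 131 ± 16.0 RPKM, and the aspartate aminotransferase Got1 from 31.3 ± 2.82 to 66.03 ± 5.89 RPKM. Cbs, which makes cystathionine from homocysteine on the way to cysteine, fell from 13.5 ± 0.932 to 2.11 ± 0.681 RPKM (-2.25 ± 0.15, adjusted p = 4.1e-05). The proline enzyme Prodh fell from 8.27 ± 0.265 to 3.00 ± 0.473 RPKM, and Bcat2 and Bckdha, which break down leucine, isoleucine and valine, from 18.4 ± 2.56 to 8.09 ± 0.663 RPKM and from 44.4 ± 1.27 to 20.5 ± 1.65 RPKM. The macrophage and Ptprc values above moved in the same libraries as Arg1, and their part in its rise was not tested.

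In Myc-CaP, 27 enzymes were tested, 4 rose and 0 fell (14.8% called, against 6.43%). Glul, which makes glutamine, rose from 162.5 ± 0.713 to 319.7 ± 5.16 TPM (log2 fold change 0.97 ± 0.049, limma adjusted p = 0.0023). Arg1 rose from 0.5002 ± 0.162 to 2.77 ± 0.138 TPM, the tryptophan-degrading Ido1 from 2.34 ± 0.310 to 5.04 ± 0.609 TPM, and Cth, the enzyme after Cbs, from 31.5 ± 0.782 to 44.2 ± 2.89 TPM (adjusted p = 0.0235, 0.0461 and 0.0336).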

How the data were processed

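RNA-seq was measured in 10 mouse libraries in 4 groups. Per the study's methods, the authors aligned paired-end reads to mm10 with TopHat2 and counted them per gene and strand with HTSeq; the submitters' processing notes name HISAT2, HTSeq and DESeq2. The authors deposited RPKM values for the epithelium and TPM values for Myc-CaP. The gene lengths and annotation behind them are not given in the sources used here. Files of single libraries held the same values as the combined tables (0 of 48897 rows differed). No other column of values was present (0 left out). All 10 samples carried 1 text on Myc-CaP culture and 1 on the epithelial sort, and the study also describes sorted Myc-CaP tumours, so whether these Myc-CaP libraries came from culture was read from the source label.

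Groups came from the genotype labels. Values were not counts, so each table was fitted alone with limma 3.58.1 (R 4.3.3) on log2(value + 1), with a trend in eBayes, over genes with a mean of at least 0.5. Fold changes are on this scale, which understates low genes. Adjusted p values are Benjamini-Hochberg, two-sided, with calls under 0.05. Errors of named genes are SDs of the deposited values, and the error after a log2 fold change is the limma SE; for the 10 members it is the SE from the gene's own pooled SD. The fit was also run on simulated data with independent noise and few changed genes. In the epithelium 57.1% of genes were called, a setting unlike the simulated one, so that run does not vouch for the calls here.

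The members, the 5 pathway lists and the 12 marker lists were chosen with earlier results of these data known. The members were named in every library. Of the other carriers, up to 6 called genes per direction with the widest change and a group mean of at least 1 were named, plus those called in both tables, and up to 4 per direction of each other list; Atf4, Ptprc, Epcam, Krt8 and Pbsn were named after their values were seen. Some items that this rule names are not reported here. Alternatives were a pseudocount of 0.1, a minimum mean of 5 or none, rescaling, quantile normalization, removal of a length trend, no eBayes trend, a replicate block and leaving out each library. Member sequences were matched by symbol to RefSeq promoters on GRCm38.p6, and gene positions to GENCODE M21.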

Additional observations from a re-analysis of the deposited data

Results flagged for a closer look

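Among the 10 transporters and the genes picked by the naming rule, 15 ran in opposite directions in the 2 systems. For these, all Arid1a KO libraries lay on one side of the controls in the epithelium and on the other in Myc-CaP. The difference between the systems was not tested, and each value is a log2 difference, Arid1a KO minus control, first in the epithelium and then in Myc-CaP. Among the 10 transporters these were Slc1a4, at -0.58 and 0.43, and Slc38a2, at 0.61 and -0.27. Among the other carriers Slc36a4 was at 0.48 and -0.14.

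In the starvation response, Asns was at -0.90 and 0.28, Chac1 at -1.02 and 0.78, and Pck2 at -0.90 and 0.79, and the synthetase Sars was at -0.53 and 0.15. Of the mTORC1 genes, Gatsl2 was at 0.73 and -0.15, Lamtor4 at -0.47 and 0.29, and Mtor at 0.35 and -0.42. Of the enzymes, Cbs was at -2.25 and 0.29, Cth at -0.47 and 0.47, Glul at -0.38 and 0.97, Ido1 at -0.81 and 0.85, and Odc1 at 1.69 and -0.18. Groups failed to overlap for 66.7% of all tested genes in the epithelium (32.4% higher, 34.4% lower) and 51.5% in Myc-CaP (24.9% higher, 26.6% lower). The share of all genes lying apart in opposite directions in both systems was not computed. Nothing is therefore read from how many genes are listed here.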

How the results depend on the processing

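No call of a member or of a gene named by the rule changed sign in the settings run; signs of other called genes were not followed. In the epithelium, 9294 genes were called; a minimum mean of 5 gave 5872 genes and 9 other transporters in place of 16, since fewer genes were tested. Of the tests of named genes under alternatives, 531 kept the call and 21 lost it, for Eif2ak4, Lamtor4, Slc25a12, Ctns, Vars, Yars and Slc16a10. Of the member values, 18 moved by more than the spread between libraries and 120 did not.

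In Myc-CaP the counts depended on the setting. A minimum mean of 5 gave 5 members called. Without a filter on low values, 358 genes, 1 member, 1 other transporter, 4 starvation genes, 1 mTORC1 gene and 1 enzyme were called. Without a trend in eBayes the counts were 451, 1, 1, 3, 1 and 2. Leaving out each library in turn gave 0 to 53 genes, 0 to 1 members and 0 in each of the 5 lists, with 2055 to 2262 genes at an unadjusted p under 0.05. Leaving out either Arid1a KO library ended every call, 51 genes stayed called without EV 1 and 53 without EV 2, and the lone library was then assumed to vary like the other group. Of the tests of named genes, 83 kept the call and 59 lost it.

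Replicate letters and numbers are not stated to pair libraries. Same-letter deviations correlated at 0.0409, 0.00944 and -0.0573 in the epithelium, and same-number deviations at 0.195 in Myc-CaP with 2 pairs, where the 4 values are not independent. A replicate block gave 8823 genes in the epithelium. In Myc-CaP the replicate block gave 2771 genes, 6 members, 6 other transporters, 16 starvation genes, 7 synthetases, 6 mTORC1 genes and 11 enzymes, with 52.4% of all calls higher in place of 70.6%.

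Depth could not be read from TPM, so small differences of genes under 1 TPM, such as Slc43a1, could not be judged. With 2 libraries a group, an interval from the SE of a gene alone is wide.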

Other observations

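Genes of branched-chain amino acid breakdown and its control were read as a group of 6 (Bcat1, Bcat2, Bckdha, Bckdhb, Bckdk and Dbt). Among them Bckdk encodes a kinase that restrains the breakdown, so its fall is not that of a breakdown enzyme. The group was chosen after the values were seen, with no test of it. In the epithelium 5 were tested and 5 were called lower by limma, where 29.6% of all genes were. Bcat1 was under the minimum mean and not tested, but was higher with the groups apart (0.189 and 0.479 RPKM). In Myc-CaP 6 were tested and 0 were called, where 6.43% of all genes were. In the same libraries, the leucine carrier Slc43a1 was lower in the epithelium and Slc43a2 was higher in both systems.

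Other letters searched on both strands of the 9 promoter windows gave few matches. TGACNNNGC, the core of the antioxidant response element, was in 3 of the 9 windows (Slc43a1, Slc7a1 and Slc38a2) and in 12.39% of all promoters. The E-box CACGTG was in 1 window (Slc43a1) against 7.15%, and the AP-1 letters TGANTCA in 1 (Slc7a1) against 7.81%. The Slc7a11 window held none of these 3 motifs.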
